A study of Mus musculus with 6 samples.

Results

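Bgn, Dcn, Tnc, Fn1, Sparc, Tgfbi, Thbs1, Postn and Lox are 9 genes for secreted, non-collagen proteins of the extracellular matrix. They were picked by symbol from the 46078 genes of the count table. Bgn and Tnc were picked also because they differed in opposite directions in the library labelled Lingo3 KO. Their values in that library, and every other measure from that contrast, are therefore given as a description. Of the 9 genes, 6 had a mean of at least 1 CPM (counts per 1000000 counts) over the libraries and were compared between libraries by a rule on size. The other 3, Postn, Tgfbi and Lox, were below that level.

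MLE12 is an immortalized mouse lung epithelial line, established from lung tumours of mice carrying the SV40 large T antigen under a surfactant protein C promoter. Messenger RNA was sequenced from 6 cultures, with 1 library in each group. The mutant groups were labelled Lingo1 KO, Lingo2 KO, Lingo3 KO and TROY KO, and each was collected 24 hours after its monolayer was scratched with a pipette tip. The wild-type groups were parental cells scratched and collected at the same time, and parental cells left unscratched. How each knockout was made, and whether a mutant line is 1 clone, is not given in the sources used here, so genotype, line and culture cannot be told apart. No unscratched mutant library was analysed here.

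Small leucine-rich proteoglycans such as biglycan and decorin bind collagen fibrils, and their core proteins carry chondroitin or dermatan sulfate chains. Fibronectin is assembled into fibres that integrins grip. Tenascin C, thrombospondin 1 and SPARC are matricellular proteins, which alter how cells attach and respond to growth factors more than they build the matrix itself, and epithelia and their underlying stroma deploy such proteins in wounds.

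With 1 library per group there was no replicate error and no test was possible. A fold is the ratio of counts scaled by the trimmed mean of M-values (TMM), followed in parentheses by its exact 95% interval, which covers counting error only. A gene is called higher or lower where the libraries differed by 2-fold or more and the interval bound nearest to 1 lay beyond 1.5-fold. Each library held 28109825 to 30776294 counts in genes, and a library with 0 counts of a gene was set at a floor of 3 counts, which is 0.0984 to 0.108 CPM depending on the library. The transcript of the targeted gene did not check the labels. Lingo1 stood at 57.0 CPM in the library labelled Lingo1 KO, against 24.5 CPM in the scratched wild-type library. Lingo2 had 0 counts everywhere, Lingo3 had 1 count in all libraries together and Tnfrsf19, which encodes TROY, had 13. Libraries are therefore called by their labels. In the scratched wild-type library, 27 genes had at least 10 counts while each of the other 5 libraries had 0. Any other library had 0 to 2 such genes. Mutant values are for this reason also given against the unscratched wild-type library. The comparisons of the 4 mutants share their wild-type library.

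Epithelial markers were present, and some fibroblast markers were absent while others differed between libraries. Cdh1 stood between 602 and 992 CPM, and Sftpc, the surfactant protein gene that marks alveolar type II cells, between 16.5 and 81.9 CPM, while Sftpd had 0 counts in every library. The summed level of 14 epithelial and alveolar type II markers was 1947 to 2122 CPM in the mutants, against 1321 CPM in the scratched and 1422 CPM in the unscratched wild-type library. Of 16 fibroblast and mesenchyme markers, Tcf21 and Dpt had 0 counts in every library, Lum had at most 1 and Col1a2 at most 3. Some other markers of that list were highest in the Lingo3 library, and some were below both wild-type libraries there. Pdgfrb, a growth factor receptor of mesenchymal cells, had 348 counts there and between 13 and 52 in the other mutants, against 1 and 3 in the wild-type libraries. Pdgfra had 204 counts in Lingo3, against 52 in scratched and 46 in unscratched wild type (3.91-fold higher than scratched, 2.87 to 5.42). The fibrillar collagen gene Col3a1 had 62 counts in Lingo3, at most 3 in the other mutants and 0 in both wild-type libraries, and Foxf1 had 38 in Lingo3, against 16 and 10. Going the other way, Gucy1a1 had 149 counts in Lingo3 and between 136 and 145 in the other mutants, against 251 and 280 in wild type. Thy1 had 8 in Lingo3, against 19 and 26, and Wnt2 had 3, against 8 and 6. With at least 1 count were 13 of the 16 in the Lingo3 library and 10 to 12 in the other mutants, against 11 in the scratched and 8 in the unscratched wild-type library. Their summed level was 27.7 CPM in the Lingo3 library and between 9.14 and 11.4 CPM in the other 3 mutants, against 12.3 CPM in the scratched and 13.3 CPM in the unscratched wild-type library. The part of these markers in the values of Bgn and Tnc was not tested. In bulk RNA, fewer cells of a type and less RNA per cell cannot be told apart.

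Bgn was the member with the widest range of levels. Biglycan mRNA had 98.3 CPM in the Lingo3 library, 14.9 CPM in Lingo1, 12.6 CPM in Lingo2 and 5.29 CPM in TROY, against 0.756 CPM in the scratched and 0.733 CPM in the unscratched wild-type library. All 4 mutant levels lay above both wild-type levels, and the share of all genes separating in this way is not given here. The raw counts of Bgn were 2998, 414, 355 and 159 in the mutants, against 23 and 21 in the wild-type libraries. Bgn (ENSMUSG00000031375) is on chromosome X from 73483602 to 73495933 on the plus strand of GRCm38. Its RefSeq promoter is shown because it precedes the member with the largest differences, and the promoter of Tnc follows because that gene differed the other way. Each runs 5′ to 3′ from 250 bases before to 50 bases after the annotated start, read from RefSeq (GRCm38.p6), and capitals mark the GC box GGGCGG (or its complement) and the TATA box TATAAA.
Bgn, chrX:73483351-73483650, plus strand: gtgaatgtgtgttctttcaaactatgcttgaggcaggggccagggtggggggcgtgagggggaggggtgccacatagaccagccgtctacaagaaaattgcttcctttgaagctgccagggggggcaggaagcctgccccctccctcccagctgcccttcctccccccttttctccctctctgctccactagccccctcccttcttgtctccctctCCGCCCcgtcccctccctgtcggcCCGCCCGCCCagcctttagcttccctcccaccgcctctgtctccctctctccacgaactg
Tnc, chr4:64046966-64047265, minus strand: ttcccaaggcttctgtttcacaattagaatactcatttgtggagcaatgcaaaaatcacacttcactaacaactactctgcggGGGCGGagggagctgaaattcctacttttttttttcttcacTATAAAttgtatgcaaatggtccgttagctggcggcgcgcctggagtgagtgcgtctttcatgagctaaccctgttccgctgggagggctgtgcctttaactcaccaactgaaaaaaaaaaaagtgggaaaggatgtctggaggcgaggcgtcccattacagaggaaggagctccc
The Bgn sequence was 63.7% G and C and held 3 matches to the GC box, of which the last 2 overlap. The Tnc sequence, 1 of 2 overlapping RefSeq start sites of the gene, was 47.3% G and C, and the other start site 54.0%. Each window held 1 exact match to GGGCGG and 1 to TATAAA. The first base of the TATAAA match was at -126 from the start shown and at -205 from the other start. Only these exact letters were searched for, so variants of the TATA box are not marked. Whether the marked match acts as a TATA box was not tested. The median over 32851 promoters was 52.7% G and C. On either strand, 35.7% of those promoters held the GC box and 13.6% the TATA box. The other motifs searched were the AP-1 site TGANTCA, in 7.81% of promoters, and the TEAD site GGAATG, in 14.7%. Neither was found in the promoters of the 5 members that the table holds (Bgn, Postn, Sparc, Tgfbi and Tnc).

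**Figure D1:**
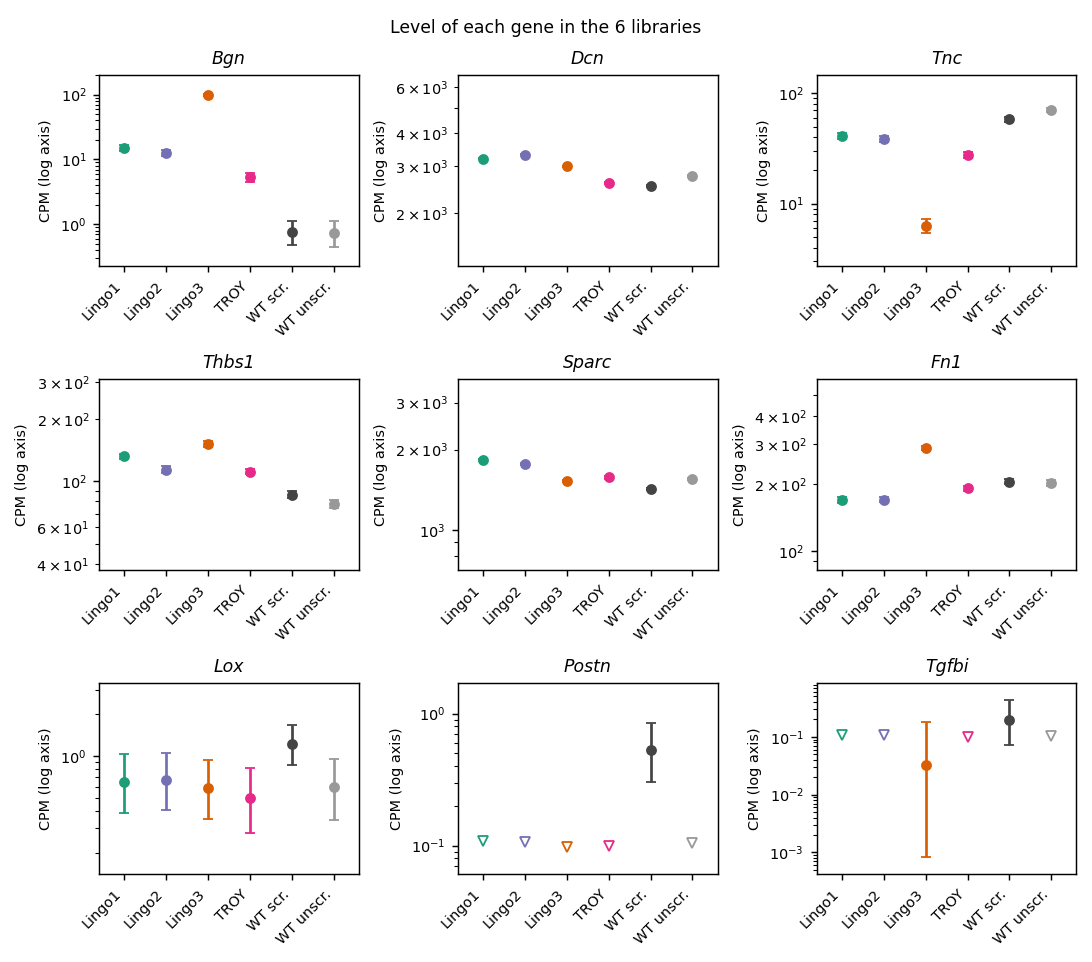
Level of each of the 9 genes in each library, in CPM after TMM scaling on a log axis, with bars for exact 95% Poisson intervals and open triangles at the floor of 3 counts for libraries with 0 counts. Bgn runs between 0.733 and 98.3 CPM and Tnc between 6.30 and 70.8 CPM, while Sparc runs between 1426 and 1827 CPM.

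Against the scratched wild-type library, Bgn was 130-fold higher in the Lingo3 library (86.5 to 205). It was 19.8-fold higher in Lingo1 (13.0 to 31.5), 16.6-fold higher in Lingo2 (10.9 to 26.5) and 6.99-fold higher in TROY (4.50 to 11.3). Against the unscratched wild-type library the folds were 134, 20.4, 17.1 and 7.21, and all 4 passed. The scratch itself gave a ratio of 1.03 (0.546 to 1.96). Of the 6 members compared, Bgn was the 1 past the rule in Lingo1, where 3.62% of all 12078 genes compared passed, and the 1 past it in Lingo2, where 3.50% passed. Bgn and Tnc passed in TROY, where 2.24% passed, and in Lingo3, where 7.19% passed. None passed with the scratch, where 0.0828% passed. Against unscratched wild type the same members passed, beside 3.17% of genes in Lingo1, 2.95% in Lingo2, 6.85% in Lingo3 and 2.25% in TROY.

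The mutant libraries also differed among themselves in Bgn. The Lingo3 level was 6.58-fold higher than that of Lingo1 (5.94 to 7.31), 7.83-fold higher than that of Lingo2 (7.01 to 8.76) and 18.6-fold higher than that of TROY (15.9 to 22.0). TROY was 2.83 times lower than Lingo1 (2.35 to 3.42) and 2.38 times lower than Lingo2 (1.97 to 2.88). Lingo2 over Lingo1 was 0.841 (0.727 to 0.971), which did not pass. Genes past the rule made up 1.65%, 1.61% and 2.61% of those compared for Lingo3 over Lingo1, Lingo2 and TROY, 0.215% and 0.364% for TROY over Lingo1 and Lingo2, and 0.0166% for Lingo2 over Lingo1. Among the 5 scratched libraries, the Lingo3 library stood apart from each of the other 4 past the rule, the same way, for 1.01% of genes, with Bgn above and Tnc below, and the wild-type library for 1.56%, with Bgn below. In the authors' deposited table, which divides by gene length, biglycan mRNA was at 36.41 RPKM in the Lingo3 library. Among 5 small leucine-rich proteoglycan genes it held rank 3 there and rank 5 in each of the other libraries.

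Dcn, the other proteoglycan, was among the most abundant transcripts and varied little. Decorin mRNA had 3211 CPM in Lingo1, 3321 CPM in Lingo2, 2997 CPM in Lingo3 and 2595 CPM in TROY, against 2532 CPM in the scratched and 2760 CPM in the unscratched wild-type library. The highest library was 1.31 times the lowest, and no comparison passed the rule. Its mean was above that of 99.9% of the genes compared. In the authors' deposited table Dcn stood at 630.59 RPKM in the Lingo3 library, where Bgn stood at 36.41 RPKM. Dcn (ENSMUSG00000019929) is on chromosome 10 from 97479609 to 97518143, plus strand. Besides collagen, decorin is known to bind TGF-beta and growth factor receptors.

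Tnc, encoding tenascin C, was lowest where Bgn was highest. It had 6.30 CPM in the Lingo3 library, 27.7 CPM in TROY, 38.3 CPM in Lingo2 and 41.1 CPM in Lingo1, against 58.0 CPM in the scratched and 70.8 CPM in the unscratched wild-type library. The mutant and wild-type levels did not overlap, and the share of all genes for which that holds is not given here. Tnc (ENSMUSG00000028364) is on chromosome 4 from 63959785 to 64047015, minus strand. Against scratched wild type it was 9.21 times lower in Lingo3 (7.93 to 10.7) and 2.09 times lower in TROY (1.93 to 2.28). The ratios in Lingo1 and Lingo2, 0.709 and 0.660, did not pass. Against unscratched wild type the Lingo3 level was 11.2 times lower (9.69 to 13.1) and the TROY level 2.55 times lower (2.36 to 2.77).

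Tnc in the Lingo3 library was also below each of the other mutants. It was 6.53 times lower than in Lingo1 (5.60 to 7.65), 6.08 times lower than in Lingo2 (5.21 to 7.13) and 4.40 times lower than in TROY (3.76 to 5.18). TROY over Lingo1 and over Lingo2 did not pass, at 0.674 and 0.724, and Lingo1 and Lingo2 could not be separated by counting error (Lingo2 over Lingo1 0.931, 0.856 to 1.01). Scratched over unscratched wild type was 0.819 (0.768 to 0.874), short of the rule. Per length, in the authors' deposited table, Tnc stood at 0.87 RPKM and Bgn at 36.41 RPKM in the Lingo3 library. In the scratched wild-type library Tnc stood at 8.12 RPKM and Bgn at 0.28 RPKM.

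**Figure D2:**
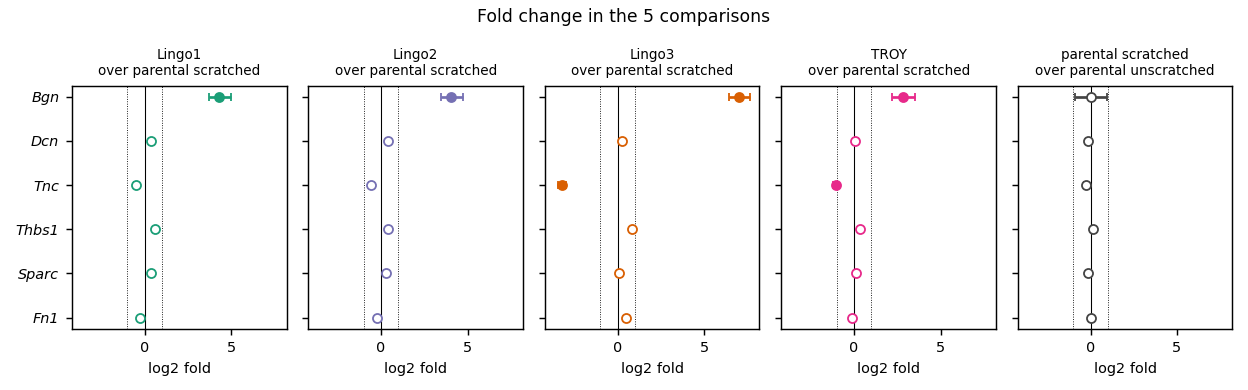
Log2 fold with its 95% counting interval for the 6 members compared, in each mutant over scratched wild type and in scratched over unscratched wild type. Filled points passed the size rule and dotted lines mark a 2-fold difference; Bgn lies right of the line in all 4 mutants, and Tnc left of it in Lingo3 and TROY.

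**Figure D3:**
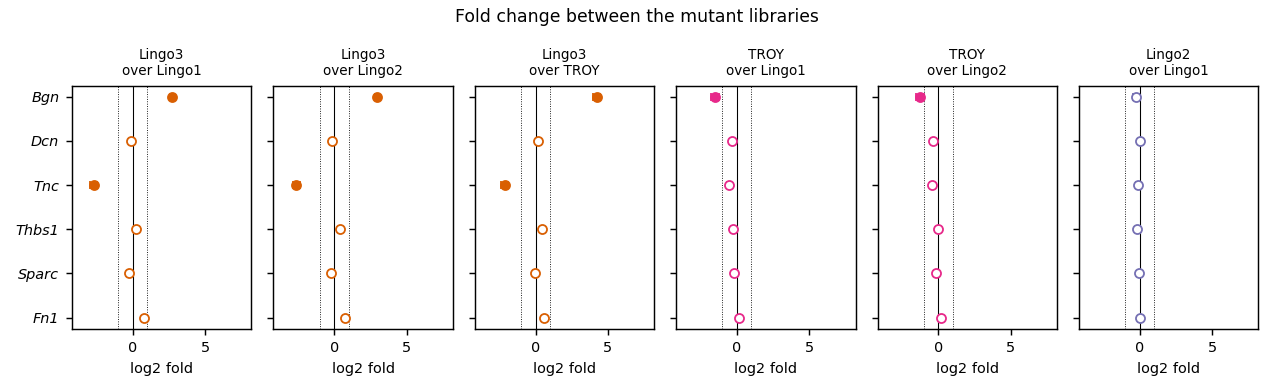
Log2 fold with its 95% counting interval for the same 6 genes in the 6 pairs of mutant libraries, with filled points past the size rule. Bgn and Tnc are filled on opposite sides in each of the 3 pairs that hold the Lingo3 library.

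Thbs1, encoding thrombospondin 1, which binds Cd47 and Cd36 and can release TGF-beta from its latent form, stayed inside the rule. It had 152 CPM in Lingo3, 132 CPM in Lingo1, 114 CPM in Lingo2 and 111 CPM in TROY, against 86.1 CPM in the scratched and 77.8 CPM in the unscratched wild-type library. The mutant levels all lay above both wild-type levels, again without a share over all genes to set beside it. The ratio to scratched wild type was 1.76 in Lingo3 (1.68 to 1.85) and between 1.29 and 1.53 in the other 3, and the ratio to unscratched wild type reached 1.95 in Lingo3 (1.85 to 2.05). Lingo2 and TROY could not be separated by counting error. Thbs1 (ENSMUSG00000040152) is on chromosome 2 from 118111876 to 118127133, plus strand.

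Sparc, encoding a collagen-binding matricellular protein, was as steady as Dcn. It had 1827 CPM in Lingo1, 1762 CPM in Lingo2, 1531 CPM in Lingo3 and 1572 CPM in TROY, against 1426 CPM in the scratched and 1557 CPM in the unscratched wild-type library. The unscratched wild-type level lay inside the range of the mutants. Ratios to scratched wild type ran from 1.07 to 1.28 and none passed. Sparc and Dcn were the 2 highest members per length in every library, and Sparc reached 785.49 RPKM in Lingo1 in the authors' deposited table. Sparc (ENSMUSG00000018593) is on chromosome 11 from 55394500 to 55423183, minus strand.

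Fn1, encoding fibronectin, had 289 CPM in Lingo3, 191 CPM in TROY, 170 CPM in Lingo2 and 169 CPM in Lingo1, against 204 CPM in the scratched and 201 CPM in the unscratched wild-type library. The Lingo3 library was the highest and the other 3 mutants lay below both wild-type libraries. None of these differences passed the rule: Lingo3 over scratched wild type was 1.42 (1.37 to 1.47), and Lingo3 over Lingo1 was 1.71 (1.65 to 1.77). Scratched over unscratched wild type was 1.01. Fn1 (ENSMUSG00000026193) is on chromosome 1 from 71585520 to 71653200, minus strand.

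The 3 low genes had their highest counts in the scratched wild-type library. Postn, encoding periostin, a fasciclin-domain protein of fibroblast matrix, had 16 counts in the scratched wild-type library and 0 in every other library. Tgfbi, of the same domain family, had 6 counts there, 1 in the Lingo3 library and 0 in the other 4. With the unscratched wild-type library set at the floor of 3 counts, Postn in the scratched library was 5.02-fold higher. The lower 95% bound, from the observed 16 and 0 counts and not from the floor, was 3.63-fold. The same ratio for Tgfbi, at the floor, was 1.88, with a lower bound of 1.11 from the observed counts, and did not pass. Lox, the lysyl oxidase that starts the cross-linking of collagen and elastin, had 18 counts in Lingo1, 19 in Lingo2, 18 in Lingo3 and 15 in TROY, against 37 in the scratched and 17 in the unscratched wild-type library. Its scratched over unscratched ratio was 2.05 (1.13 to 3.88), short of the rule, and the mutants over unscratched wild type ran from 0.840 to 1.13. Postn (ENSMUSG00000027750) is on chromosome 3 from 54361109 to 54391037, Tgfbi (ENSMUSG00000035493) on chromosome 13 from 56609523 to 56639562, both on the plus strand, and Lox (ENSMUSG00000024529) on chromosome 18 from 52516067 to 52529867, minus strand.

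Transcripts of some endothelial markers, and of Efemp1, were also highest in the scratched wild-type library. Tie1, an endothelial receptor gene, had 52 counts in the scratched wild-type library and 0 in the other 5. The endothelial cadherin Cdh5 had 20 there and at most 1 elsewhere, Efemp1, a fibulin, 67 there and at most 6 elsewhere, and Vwf 169 there and between 11 and 37 elsewhere. These genes were chosen after their values were seen. Of the other endothelial markers, Pecam1 had 8 counts in the scratched and 9 in the unscratched wild-type library, and between 4 and 15 in the mutants. Emcn had 0 counts in the scratched wild-type library and at most 1 elsewhere. The summed level of the 8 endothelial markers was 162 to 188 CPM in the mutants, against 97.4 CPM in the scratched and 103 CPM in the unscratched wild-type library, most of it from Tek. Their part in the values of Postn, Tgfbi and Lox was not tested.

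**Figure D4:**
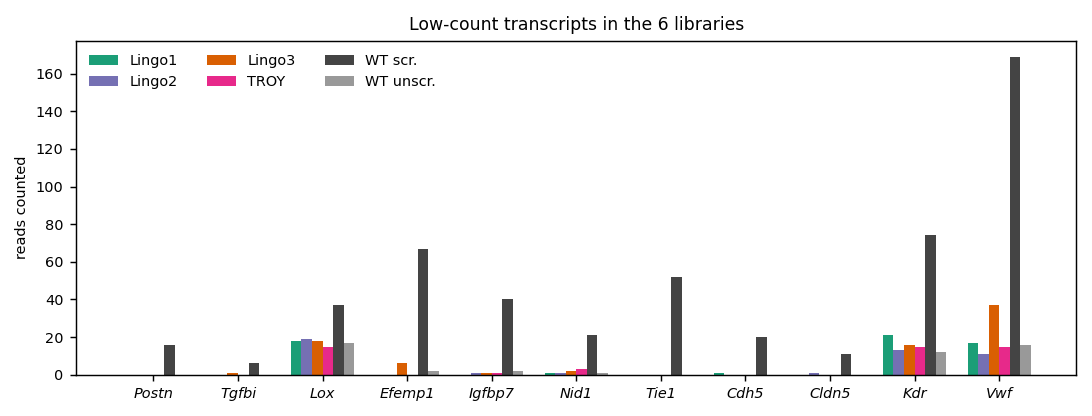
Reads counted in each library for Postn, Tgfbi and Lox and for 8 further genes chosen after their values were seen. The scratched wild-type library holds the highest count for each of them, with 16 for Postn, 52 for Tie1 and 169 for Vwf.

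The wider matrix was taken from 10 lists of matrix genes (proteoglycans, tenascins, thrombospondins, SPARC and fasciclin families, lysyl oxidases, elastic fibre and CCN genes, and others), written with earlier results known. Leaving out the 9 members, 45 of 91 genes were compared. In the Lingo3 library 12 were higher and 4 lower, which is 35.6% past the rule beside 7.19% of all genes compared. Lingo1 had 4 higher and 1 lower (11.1%, beside 3.62% of all genes), Lingo2 4 higher and 2 lower (13.3%, beside 3.50%), and TROY 2 higher and 1 lower (6.7%, beside 2.24%). Against unscratched wild type the counts were 11 higher and 4 lower in Lingo3 (33.3%, beside 6.85% of all genes) and 2 and 2 in Lingo1 (8.9%, beside 3.17%). They were 4 and 2 in Lingo2 (13.3%, beside 2.95%) and 2 and 1 in TROY (6.7%, beside 2.25%). With the scratch none passed. The median log2 fold of these 45 genes was 0.36 in Lingo3, 0.50 in Lingo1, 0.33 in Lingo2 and 0.28 in TROY, beside 0.01 to 0.02 for all genes compared. The medians against unscratched wild type were 0.27 in Lingo3, 0.32 in Lingo1, 0.19 in Lingo2 and 0.13 in TROY, beside -0.01 to 0.01 for all genes. Eln passed the filter through the Lingo3 library alone, so it had to differ.

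Among relatives of Bgn, the small leucine-rich proteoglycan Fmod, which also binds collagen fibrils, was lower in Lingo3, at 104 CPM against 215 CPM in scratched wild type (2.06 times, 1.98 to 2.15). Prelp, Podn and Dcn did not pass in any mutant. Among tenascins, Tnxb was higher in Lingo3, at 85.0 CPM against 31.8 CPM (2.68-fold, 2.48 to 2.88), while Tnc was lower, and the other tenascin gene compared did not pass. In the authors' deposited table the order of these paralogs differed: Tnxb 6.87 and Tnc 0.87 RPKM in Lingo3, against Tnxb 2.59 and Tnc 8.12 RPKM in scratched wild type.

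Thbs3, a thrombospondin gene, was higher in Lingo3 at 3.99-fold (3.02 to 5.33), in Lingo2 at 2.49-fold and in Lingo1 at 2.20-fold, and did not pass in TROY. The Lingo1 ratio of Thbs3 to unscratched wild type, 1.92 (1.42 to 2.61), did not pass. Spock2, a SPARC-family proteoglycan gene, was 4.23-fold higher in Lingo3 (3.97 to 4.51), and Loxl4, a lysyl oxidase relative of Lox, 2.45-fold (2.29 to 2.63). The CCN genes Ccn1 and Ccn2 did not pass, while Ccn3 was 3.68-fold higher in Lingo3. Spp1, encoding osteopontin, an integrin ligand, was higher in all 4 mutants, at 16.1-fold in Lingo3, 4.25-fold in Lingo1, 5.74-fold in Lingo2 and 4.04-fold in TROY. In the list of fibulins, fibrillins and elastic fibre genes, Fbln2 was higher in all 4, at between 2.38- and 3.46-fold. Hmcn1, of the same list, was lower in all 4, at ratios between 0.443 and 0.477. Npnt, encoding nephronectin of the basement membrane, was 3.65 times lower in Lingo3 (3.35 to 3.98).

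**Figure D5:**
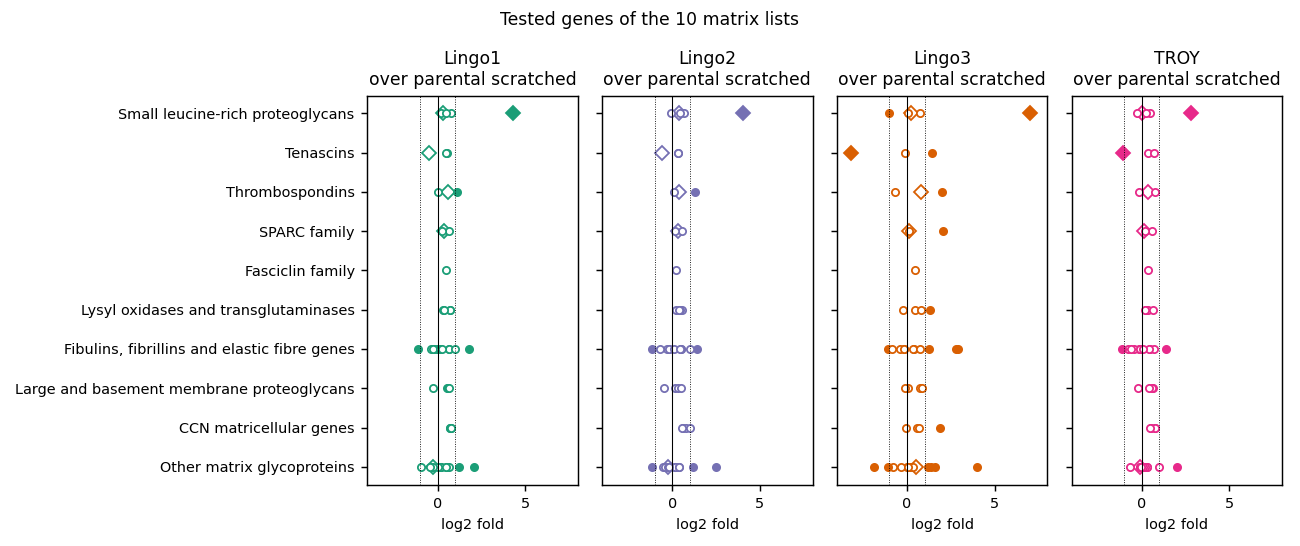
Log2 fold of the tested genes of the 10 matrix lists in each mutant over scratched wild type, with the 6 members compared drawn as diamonds and filled symbols past the size rule. Bgn and Spp1 lie right of the 2-fold line in each panel, and Tnc lies left of it in Lingo3 and TROY.

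Biglycan and decorin carry glycosaminoglycan chains, and of 20 genes compared for chondroitin and dermatan sulfate synthesis, 3 were higher in Lingo3, beside 7.19% of all genes past the rule there, and none passed in Lingo1, Lingo2 or TROY, where 3.62%, 3.50% and 2.24% of all genes did. These were the sulfotransferases Chst11 (2.55-fold, 2.33 to 2.78), Chst15 (2.17-fold) and Ust (2.32-fold). Among 18 receptors of the members, 2 were higher and 2 lower in Lingo3, beside the same 7.19%. Itga9, an integrin subunit that binds tenascin C, was at 14.8 CPM in Lingo3 against 3.71 CPM in scratched wild type (3.97-fold, 3.23 to 4.93), and was lower in TROY at 1.66 CPM. Against unscratched wild type, at 3.35 CPM, the TROY ratio of Itga9 was 0.496 (0.345 to 0.705) and did not pass. Cd44, a hyaluronan receptor, was 2.31-fold higher in Lingo3. Itgb8 and Egfr were lower in Lingo3, Lingo2 and Lingo1, with Egfr at 4.95, 6.51 and 6.53 CPM against 13.5 CPM in scratched wild type. The biglycan receptors Tlr2 and Tlr4 did not pass in any mutant.

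By the root mean square difference of centred log2 levels over the 6 libraries, the gene nearest to Bgn was Dysf, at 0.61, followed by Pdgfrb at 0.80, Sprr2a3 at 0.90, Mylk at 0.90 and Plcb1 at 0.92. Dysf stood at 43.0 CPM in Lingo3 and between 2.29 and 7.98 CPM in the other mutants, against 1.32 CPM in scratched and 0.349 CPM in unscratched wild type. Pdgfrb stood at 11.4 CPM in Lingo3 and at 0.0329 CPM in scratched wild type, on 1 count. It passed the filter on low levels through the Lingo3 library alone, so it could enter this ranking only with a high Lingo3 level. The genes nearest to Tnc were Col4a6 at 0.35, Pcsk5 at 0.41, Opcml at 0.49, Popdc3 at 0.50 and n-R5-8s1, a ribosomal RNA gene with near-identical copies, at 0.51. Those nearest to Thbs1 were Xxylt1 at 0.04, Ppip5k1, Spire2 and Myc at 0.05 and Pmvk at 0.06. The measure is not scaled by a gene's range, so its size cannot be compared between these members. The highest library was 1.95 times the lowest for Thbs1, against 134 times for Bgn and 11.2 times for Tnc.

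Of the 3 compared genes nearest to Bgn and to Tnc on each side along the chromosome, none passed the rule in any of the 5 comparisons. In Lingo3 the neighbours of Bgn lay between -0.20 and 0.49 log2 fold and those of Tnc between -0.49 and 0.23. Tlr4, a neighbour of Tnc, was at 7.38 CPM in Lingo3 and at 7.36 CPM in scratched wild type.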

How the data were processed

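Gene counts of 6 MLE12 libraries, 1 per group, were taken as the authors deposited them, with the deposited RPKM values and log2 ratios of RPKM in a second table. Per the submitters' processing notes, Trimmomatic 0.39, STAR, HTSeq and edgeR were used with GRCm38, with other versions and the order of use not given in the sources used here. Deposited RPKM were checked against the deposited counts over 7594 genes: after removing gene and library constants, log2 residuals had an SD of 0.000718. All 5 HTSeq summary lines were left out of totals and comparisons; reads in no feature were 4.98% to 8.02% of uniquely assigned reads. Counts were scaled by TMM (edgeR 4.0.16, R 4.3.3), and folds, Clopper-Pearson and Poisson intervals were computed in Python 3.11.15 with scipy 1.17.1. Of 46078 genes, 12078 averaged 1 CPM or more over the libraries and were compared. Positions come from GENCODE M21 (45229 genes matched) and promoters from RefSeq (5 of 9 members matched). The members and lists were chosen with earlier results of these data known. The text names all members, up to 4 genes per list and comparison past the rule, the 5 genes nearest in pattern and the 3 neighbours on each side, and other list genes as examples of what did not pass. DESeq2 1.42.0 size factors, total counts and other thresholds were alternatives. The ratio step was tested on simulated data.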

Additional observations from a re-analysis of the deposited data

How the results depend on the processing

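No paired analysis was possible because each group had 1 library, and no library could be left out of a group. Of 237 recomputed folds, 234 kept their direction and their side of the size rule under total counts, DESeq2 size factors, the unscratched wild-type library and the authors' deposited ratios; the 3 that moved were Lox, at 2.07 with the scratch, 0.483 in Lingo3 and 0.403 in TROY, where the deposited ratio carries no interval. With a looser rule (1.5-fold), 2 members passed in Lingo1 and 2 in Lingo2, in place of 1 each. In Lingo3, Thbs1 passed the looser rule too, beside Bgn and Tnc. With a stricter rule (3-fold, bound beyond 2-fold), 1 member (Bgn) passed in TROY, in place of 2. The shares of all genes past the looser and the stricter rule are not given here, so these counts have no background beside them. With no filter on low counts, Postn was added, higher with the scratch and lower in all 4 mutants. Then 1 member passed with the scratch, 2 in Lingo1 and 2 in Lingo2, and Postn joined Bgn and Tnc in Lingo3 and TROY. The matrix list genes past the rule then numbered 4 with the scratch, 9 in Lingo1 and 6 in TROY, in place of 0, 5 and 3. The shares of all genes past the rule without the filter are not given here. These counts of members and list genes therefore cannot be set against them. With a pseudocount of 0.1 CPM, 2 of the 5 genes nearest to Bgn and 2 of the 5 nearest to Tnc stayed. Depth limits Postn, Tgfbi and Lox, and intervals cover counting error only.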

Other observations

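The fibrillar collagen gene Col1a1, whose product biglycan and decorin bind, was higher in all 4 mutants, at 398 CPM in Lingo3, 170 CPM in Lingo1, 136 CPM in Lingo2 and 146 CPM in TROY, against 44.8 CPM in scratched wild type. Its partner chain Col1a2 had at most 3 counts in any library. Col11a1 was lower in all 4, at ratios between 0.116 and 0.371. Among the 22 TGF-beta pathway genes compared, Ltbp2, a latent TGF-beta binding protein gene, was 16.2-fold higher in Lingo3 (10.3 to 26.9). Against unscratched wild type, on 2 counts, the ratio was 153 (41.9 to 1267), and there Ltbp2 passed in Lingo1 and Lingo2 too. Ltbp2 passed the filter through the Lingo3 library alone. It was also higher with the scratch, on 20 counts in the scratched and 2 in the unscratched wild-type library (9.42-fold, 2.29 to 83.1). Ltbp1, of the same family, was 2.13-fold higher in TROY (1.83 to 2.49), and against unscratched wild type its ratio of 1.99 (1.72 to 2.32) did not pass.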
